A study of Mus musculus with 8 samples.

Results

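The libraries described here are the 4 vehicle controls of a mouse limb bud culture experiment, 4 of the 8 samples in all, taken by their treatment label and by no measured value. Forelimb buds of CD1 mice, an outbred stock, were dissected on gestation day 13 and cultured for 24 hours with DMSO, the solvent in which the test compounds of the study were dissolved. The other 4 samples were cultured with an organophosphate ester mixture diluted 1 in 300000 and are not used here. Polyadenylated RNA was sequenced from each sample, and the labels name no genetic change in these mice. The libraries are called vehicle 1 to vehicle 4 after the replicate numbers in the labels, which do not say how many buds or embryos went into each or whether they came from separate litters. A spread between them may therefore be technical as well as biological, and with a single group no test between groups was made.

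The limb bud is an outgrowth of mesenchyme wrapped in ectoderm. Within it the mesenchyme condenses into cartilage models of the bones, driven by the transcription factor Sox9, and the cartilage cells later mature into hypertrophic chondrocytes that secrete collagen X and call in blood vessels. Around the cartilage lies the perichondrium, where bone-forming cells arise under Runx2 and Sp7. Muscle precursors enter the bud from the somites, and vessels, nerves and blood cells are carried in as well. Hox genes pattern the limb from shoulder to digit, and Tbx5 marks the forelimb as Tbx4 and Pitx1 mark the hindlimb.

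Levels of different genes are given here in FPKM, fragments scaled to gene length and to the counted reads of the library, and each ± is the SD over the 4 libraries. A gene is called expressed at a mean of at least 1 FPKM. By that threshold 13252 of 21692 genes in the table were expressed (61.1%), 6905 reached 10 FPKM and 506 reached 100. The 61.1% is the share to set beside each count of expressed list members below. The median gene stood at 3.05 FPKM. The libraries held 17549560 to 22006738 counted reads, and 1244 genes took 50% of them. Pairs of libraries correlated at 0.988 to 0.994 across genes on the log2 scale, a description in which genes are not independent replicates. The common biological coefficient of variation, edgeR's estimate of the spread beyond counting error, was 0.1011.

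The most abundant transcript per length was H19, the imprinted noncoding RNA at chr7:142575529-142578143 of mm10. Its level was 6898 FPKM in vehicle 1, 8077 in vehicle 2, 7124 in vehicle 3 and 7243 in vehicle 4, and it alone took 1.68% of all counts. Its imprinted neighbour Igf2, a fetal growth factor, stood at 2227, 2305, 2281 and 2238 FPKM, the libraries lying within 1.03-fold of each other after TMM scaling, which corrects for differences in library composition. Of 18 fetal growth genes, 17 were expressed, with a median of 117 FPKM. The growth-restraining imprinted gene Cdkn1c reached 1070.2 ± 49.6 FPKM and the paternally expressed Mest 553 ± 27.3. Dlk1, a surface protein of immature mesenchyme, was at 260.0 ± 9.43 FPKM. Lin28b, a repressor of let-7 maturation in early embryos, was at 0.450 ± 0.111 FPKM from 196 reads, below the threshold.

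Among the 20 most abundant genes only Col2a1 encodes a structural protein of 1 tissue. The others were H19, Igf2, Yam1, 4 mitochondrial genes (mt-Co1, mt-Cytb, mt-Nd1 and mt-Nd2), the elongation factors Eef1a1 and Eef2, Tpt1, the ferritin gene Ftl1, and the ribosomal protein genes Rps26, Rps12, Rplp0, Rplp1, Rps27, Rps4x, Rps15 and Rpl4.

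Cartilage genes had the highest median level of the 18 tissue lists. Every one of the 26 genes of resting and proliferating cartilage in the table was expressed, against 61.1% of all genes, with a median of 68.9 FPKM. Col2a1, the collagen of cartilage matrix, at chr15:97975602-98004695, measured 1351, 1295, 1323 and 1149 FPKM in vehicle 1 to vehicle 4. Vehicle 4 was the lowest and the other 3 lay close together. The 3 chains of collagen IX, which coats collagen II fibrils, stood at 289 ± 22.2 (Col9a1), 336 ± 18.8 (Col9a2) and 291 ± 19.6 (Col9a3) FPKM. The matrix adaptor Matn1 measured 227, 271, 291 and 229.9 FPKM. Acan, the large proteoglycan that holds water in cartilage, was at 60.4 ± 5.41 FPKM.

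The regulator Sox9 measured 129, 107, 117 and 104 FPKM. Its partners were lower, Sox5 at 13.8 ± 1.33 FPKM and Sox6 at 12.9 ± 1.26. At the low end stood Ucma, a secreted protein of cartilage, with 0.404, 1.97, 1.23 and 1.23 FPKM from 83 reads. The cartilage list as a whole took 1.70%, 1.68%, 1.72% and 1.52% of the counts, vehicle 4 being the lowest.

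Genes of maturing cartilage were lower and varied more. Of 17 prehypertrophic and hypertrophic genes 15 were expressed, with a median of 9.79 FPKM. Ihh, the signal that prehypertrophic chondrocytes send to the perichondrium, measured 15.5, 19.04, 21.2 and 17.2 FPKM. Pth1r, the receptor that holds chondrocytes back from hypertrophy, was at 61.3 ± 5.58 FPKM. Both were lowest in vehicle 1.

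Col10a1, the collagen of hypertrophic chondrocytes, stood at 5.52, 9.19, 17.9 and 6.58 FPKM. Vehicle 3 was well above the other 3 libraries, and the highest library was 3.20 times the lowest after scaling. Nt5dc1 overlaps Col10a1 on the opposite strand with 61.2% as many reads, and no source used here gives the strand setting of the counting. Per length, Col10a1 reached 0.00761 ± 0.00413 of the level of Col2a1. Ibsp, bone sialoprotein, measured 30.5, 64.2, 82.7 and 50.2 FPKM, again lowest in vehicle 1 and highest in vehicle 3. Panx3, a channel of maturing chondrocytes and osteoblasts, showed the same extremes with 10.8, 16.6, 24.0 and 17.6 FPKM, as Slc13a5, a citrate transporter, did with 1.76, 2.98, 4.20 and 1.99.

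The collagenase Mmp13, which opens hypertrophic matrix to vessels, was near its floor, at 0.136 ± 0.0397 FPKM from 29 reads over the 4 libraries. Phospho1, a phosphatase of mineralization, had 22 reads. Vegfa, which attracts vessels, measured 107, 75.9, 55.4 and 37.2 FPKM and so did not share the high level in vehicle 3. It is also a target of low oxygen, a list described further on. A range of at least 2-fold between libraries was seen in 5 of the 15 list members that passed a filter on low counts, against 5.47% of the 14892 genes that passed. Without vehicle 1 the count was 3 and without vehicle 3 it was 2.

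Perichondrial and early bone genes covered a wide span. Of 21 genes, 18 were expressed, with a median of 10.7 FPKM. The collagen I chains that form bone and connective tissue matrix led, Col1a1 with 489.8, 511, 521 and 472 FPKM and Col1a2 with 450.0, 444, 448 and 415. Col2a1 was 2.57 ± 0.14 times as high per length as Col1a1. Runx2, the master regulator of bone formation, stood at 8.98 ± 0.835 FPKM and Sp7, the factor that acts after it, at 8.99 ± 0.804. Supt3 overlaps Runx2 on the opposite strand with 29.4% as many reads.

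Genes of later bone cells were at or near the bottom of the scale. Bglap, osteocalcin of mature osteoblasts, had 22 reads in all and 0.602 ± 0.344 FPKM. The osteocyte genes Dmp1 and Sost had 90 and 45 reads. Ifitm5, an early osteoblast membrane protein, was higher, with 7.97, 14.7, 14.96 and 14.5 FPKM, vehicle 1 being the lowest.

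The joint interzone list, whose genes mark the gaps that open between bones, was expressed in full, 15 of 15 genes, with a median of 10.9 FPKM. Gdf5, the joint-forming growth factor, measured 26.9, 23.8, 21.3 and 22.9 FPKM. The transcription factors Erg, Osr1 and Osr2 stood at 30.9 ± 0.922, 57.2 ± 5.30 and 32.4 ± 1.35 FPKM. Erg also marks endothelium. Prg4, lubricin of the mature joint surface, was at 1.48 ± 0.165 FPKM, with Tpr overlapping it on the opposite strand at 2655% of its reads, so this value is uncertain.

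Tendon genes were likewise all expressed, 16 of 16, with a median of 31.7 FPKM. Scx, the early tendon factor, measured 61.8, 76.6, 74.4 and 79.9 FPKM, and the Bop1 gene overlapping it on the opposite strand had 69.1% as many reads. Tnmd, a marker of tendon differentiation, was at 23.9 ± 2.64 FPKM and Mkx at 23.8 ± 1.26. The small matrix proteoglycans Bgn, Lum and Dcn reached 165 ± 9.12, 106 ± 5.94 and 65.5 ± 5.77 FPKM. Among the general limb mesenchyme genes, 15 of 16 were expressed with a median of 45.4 FPKM, led by collagen III (Col3a1) at 334 ± 16.9, the retinoic acid binding protein Crabp1 at 166 ± 22.7 and the growth factor receptor Pdgfra at 124 ± 11.0. Prrx1, a defining factor of limb mesenchyme, stood at 71.6 ± 4.53 FPKM.

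**Figure D1:**
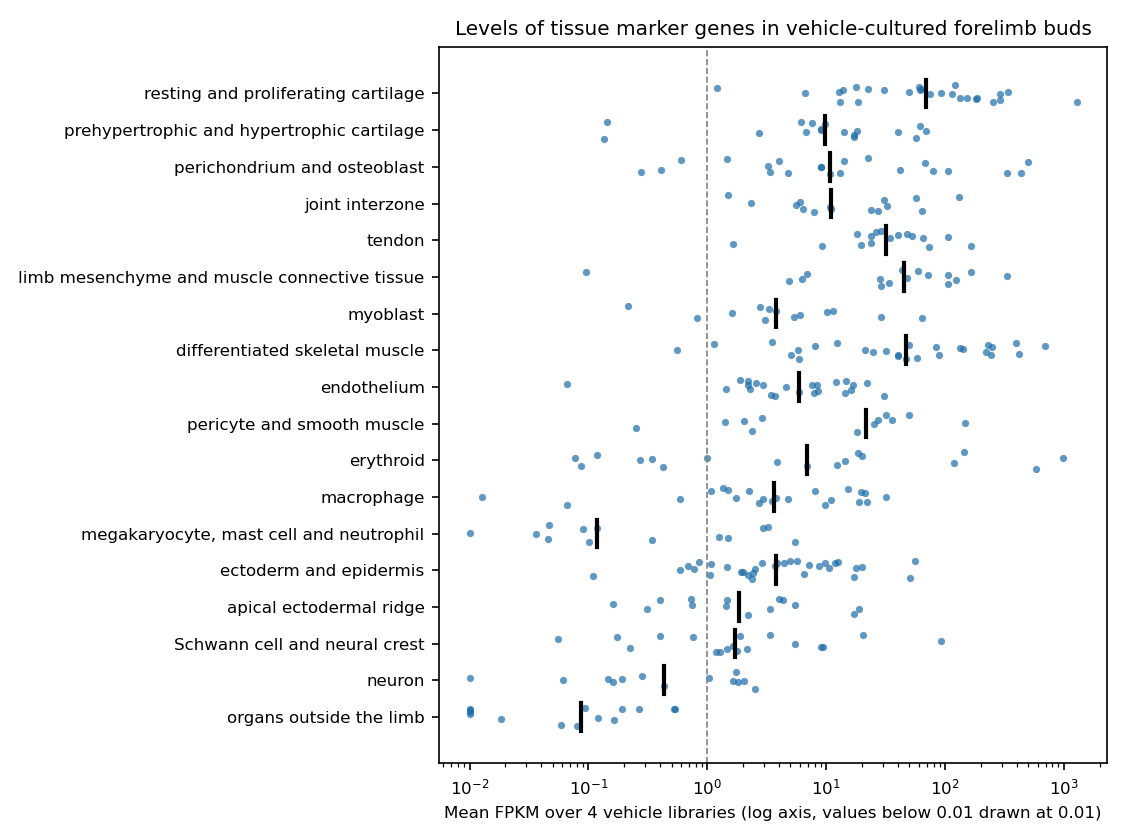
Mean FPKM over the 4 vehicle libraries on a log axis for each member (point) of 18 tissue lists; the black bar is the list median and the dashed line marks 1 FPKM. Resting and proliferating cartilage has the highest median, 68.9 FPKM, and all 14 measured genes of organs outside the limb lie left of the dashed line.

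Muscle genes of fibres stood above those of their precursors. In the myoblast list 11 of 13 genes were expressed with a median of 3.77 FPKM, while in the list of differentiated muscle 26 of 27 were, with a median of 46.6. Pax3, which marks precursors on their way into the limb, was at 0.214 ± 0.0579 FPKM from 66 reads. Pax7, its counterpart in later progenitors, measured 3.66, 3.02, 2.74 and 3.67 FPKM. Of the factors that commit cells to muscle, Myf5 stood at 5.36 ± 0.515 FPKM and Myod1 at 63.5 ± 3.63.

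Myog, the factor of terminal differentiation, measured 124, 147, 141 and 155 FPKM. Among myosin heavy chains the embryonic form Myh3 was at 138, 136, 125 and 139 FPKM and the perinatal form Myh8 at 40.0, 42.0, 39.1 and 40.0, a ratio of 3.34 ± 0.14. Cardiac α-actin, Actc1, which is also the first actin of skeletal muscle, measured 619, 700.1, 699 and 761 FPKM. Skeletal α-actin, Acta1, followed with 354, 397, 407 and 432. The ratio of Acta1 to Actc1 within a library was 0.572 ± 0.007, the steadiest of the 10 gene pairs compared relative to its mean. Since these actins are close in sequence, reads may be split between them. Troponins of the slow type were abundant, Tnnc1 at 250.5 ± 29.7 FPKM and Tnnt1 at 230.3 ± 21.9, although Nisch overlaps Tnnc1 on the opposite strand with 455% of its reads. The fast-type myosin light chain gene Mylpf stood higher, at 417 ± 44.2 FPKM. Ckm, the creatine kinase of mature muscle, had 63 reads and 0.556 ± 0.129 FPKM. Vehicle 1 was the lowest library for 17 of the 27 differentiated genes, and the list's share of counts was 0.596%, 0.641%, 0.615% and 0.674%.

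The promoters of the paired actins are shown because their transcripts kept nearly 1 ratio in every library. They are RefSeq sequences of GRCm38.p6, the same assembly as mm10, read 5′ to 3′ up to the transcript start and cut where GENCODE annotates an exon. Capitals mark the CArG box, the motif that serum response factor binds. It was found in the 250 bases before the start in 1.47% of 32851 promoters. In the muscle list 2 of 29 promoters held it (6.9%), and these 2 are the promoters shown here. No other promoter of that list held it. A match is a description of letters and not a bound site.
Acta1 (chr8:123894776-123895025, minus strand): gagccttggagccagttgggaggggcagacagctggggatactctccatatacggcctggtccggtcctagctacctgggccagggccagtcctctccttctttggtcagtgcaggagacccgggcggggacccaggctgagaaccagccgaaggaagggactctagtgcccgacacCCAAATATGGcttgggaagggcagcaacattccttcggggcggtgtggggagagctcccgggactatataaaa
Actc1 (chr2:114052888-114053125, minus strand): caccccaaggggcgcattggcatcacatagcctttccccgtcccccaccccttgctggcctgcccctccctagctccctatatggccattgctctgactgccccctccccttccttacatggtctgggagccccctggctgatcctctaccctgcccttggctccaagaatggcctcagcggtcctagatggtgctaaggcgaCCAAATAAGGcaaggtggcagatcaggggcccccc

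Vessel genes stood at moderate levels. Of 23 endothelial genes 22 were expressed with a median of 5.96 FPKM. The adhesion molecules Cdh5 and Pecam1 measured 25.4, 22.2, 20.1 and 20.02 FPKM and 18.6, 18.1, 16.1 and 14.2. The receptor Kdr, which senses VEGF, stood at 9.51, 7.32, 7.64 and 6.92 FPKM, and Tek at 1.90 ± 0.182. Vehicle 1 was the highest for 13 of the 22 genes and vehicle 4 the lowest for 14. Prox1, a lymphatic factor with other sites of expression, was at 2.28 ± 0.175 FPKM, while the lymphatic and macrophage gene Lyve1 had 14 reads. In the pericyte and smooth muscle list, Pdgfrb, Cspg4 and Rgs5 stood at 25.2 ± 1.45, 31.8 ± 1.09 and 2.05 ± 0.203 FPKM, and smooth muscle actin, Acta2, at 146 ± 18.1. These levels do not show which cells made the transcripts. Myh11, the myosin of mature smooth muscle, had 133 reads. In these bulk samples fewer cells of a type and less RNA per cell cannot be told apart, here or in any other list.

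The globins Hbb-y, Hba-a1, Hba-x and Hbb-bs were the highest of the red cell genes. Of 17 erythroid genes, 10 were expressed, no larger a share than the 61.1% of all genes, with a median of 6.87 FPKM. The embryonic β-like globin Hbb-y measured 776, 1135, 952 and 1032 FPKM and the other embryonic β-like gene, Hbb-bh1, 9.09, 18.6, 10.8 and 10.7. The adult β genes Hbb-bs and Hbb-bt stood at 119.8 ± 20.9 and 20.1 ± 3.06 FPKM. Summed per length, adult over embryonic β globin came to 0.134, 0.137, 0.149 and 0.146. On the α side the order was the other way round. The embryonic Hba-x measured 115, 180.4, 119 and 168 FPKM and the adult-type Hba-a1 438, 669.7, 567 and 655, a summed ratio of 4.05 ± 0.48 with Hba-a2 included. Hba-a1 and Hba-a2 are near-identical copies, and only 4 reads were counted for Hba-a2, so their split is uncertain. Hbb-bs and Hbb-bt are close copies as well.

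Vehicle 1 had the lowest level of Hbb-y, Hba-a1, Hba-x and both adult β genes, and vehicle 2 the highest. The transcription factors of red cell precursors were scarce: Klf1 had 43 reads and Gata1 18. Alas2, the haem enzyme of red cells, stood at 3.84 ± 0.42 FPKM with Apex2 overlapping it on the opposite strand.

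Macrophage genes were mostly expressed, 19 of 22, with a median of 3.64 FPKM. The complement genes C1qa, C1qb and C1qc were at 21.4 ± 3.10, 22.1 ± 1.72 and 19.6 ± 2.46 FPKM and the lysozyme gene Lyz2 at 32.1 ± 5.46. Csf1r, the growth factor receptor of the lineage, measured 5.502, 4.89, 4.08 and 4.78 FPKM, with Hmgxb3 overlapping it on the opposite strand. Cd163 of mature resident macrophages had 5 reads. Of the 13 genes of platelet precursors, mast cells and neutrophils 5 were expressed, a smaller share than the 61.1% of all genes. The mast cell protease Cpa3 measured 2.04, 4.05, 2.94 and 4.01 FPKM and the neutrophil gene S100a9 had 15 reads.

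Of the skin genes the keratins of the basal layer were the highest. Of 32 ectodermal genes 27 were expressed, with a median of 3.80 FPKM. The basal keratins Krt14 and Krt5 measured 48.8, 60.9, 52.8 and 62.3 FPKM and 58.9, 54.8, 40.7 and 48.2. Krt8, a keratin of the single-layered ectoderm, stood at 2.53, 2.08, 1.97 and 1.43 FPKM, and Krt14 over Krt8 varied from 19.3 in vehicle 1 to 43.4 in vehicle 4. Krt1 and Krt10, the keratin pair of the layer above the basal cells, measured 11.7, 12.9, 7.73 and 18.0 FPKM and 10.2, 10.7, 5.90 and 11.999. Vehicle 3 was the lowest library for both. It was the lowest for 18 of the 31 ectodermal genes that passed the filter, and the list took 0.0653%, 0.0647%, 0.0535% and 0.0647% of the counts. The epidermal regulator Trp63 stood at 4.96, 3.77, 3.09 and 3.73 FPKM.

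Of the FGFs made by the apical ectodermal ridge, the organizing edge of the young bud, all in the list but Fgf9 stood under 1 FPKM. Fgf8, its defining signal, had 36 reads and measured 0.732, 0.267, 0.366 and 0.233 FPKM. Fgf4 was at 0.746 ± 0.174 FPKM and the ridge factor Sp8 at 0.161 ± 0.0428. Fgf9 was higher at 5.44 ± 0.204 FPKM. Of the 14 ridge genes, 9 passed 1 FPKM, a share close to the 61.1% of all genes. Among them were Bmp4 at 18.9 ± 2.11 and Dlx5 at 17.3 ± 0.974, which are also made in mesenchyme or bone precursors.

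Genes of nerve and glia were low. Of 18 Schwann cell and neural crest genes 13 were expressed, against 61.1% of all genes, with a median of 1.70 FPKM. Sox10, the defining factor, stood at 3.39 ± 0.417 FPKM and the neuregulin receptor Erbb3 at 9.11 ± 0.794. Pmp22, at 92.3 ± 5.93 FPKM, is also made by mesenchyme. Pigment cell genes were low, with Dct at 40 reads and Tyrp1 at 12. Neuronal genes reached the threshold in 6 of 13 cases, a smaller share than the 61.1% of all genes. Tubb3 stood at 2.05 ± 0.104 FPKM, whereas Syt1, Snap25 and Elavl3 had 61, 57 and 25 reads. Of the 14 measured genes of organs outside the limb 0 reached 1 FPKM, the highest being Amh at 0.538 ± 0.208.

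The limb identity genes were led by the forelimb factor. Tbx5 measured 68.8, 74.5, 75.9 and 73.5 FPKM and Tbx4 8.87, 9.28, 9.20 and 8.17, a ratio of 8.26 ± 0.53. Pitx1, the hindlimb selector, was at 1.46, 1.74, 1.22 and 1.08 FPKM from 266 reads. The hindlimb Hox genes Hoxc9, Hoxc10 and Hoxc11 had 34, 36 and 45 reads.

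Of 16 posterior Hox and neighbouring Hox genes 14 were expressed, with a median of 20.8 FPKM, and a median CV (SD over mean) of 5.94%. The median CV of all genes was 7.20% between 10 and 30 FPKM and 6.31% between 30 and 100. Hoxd13, the digit-end gene of its cluster, was the highest at 127, 121, 125 and 119.8 FPKM. It exceeded Hoxd11, a gene of the forearm and wrist, 4.84 ± 0.55 times per length, and Hoxa13 exceeded Hoxa11 2.005 ± 0.207 times. Hoxa11os overlaps Hoxa11 on the opposite strand with 426% of its reads. Hoxd12 measured 46.7, 46.5, 45.5 and 47.6 FPKM, all 4 libraries lying within 1.04-fold of each other after scaling.

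The posterior organizer signal Shh was almost absent, with 10 reads over the 4 libraries. The hedgehog signal Ihh, described above with maturing cartilage, stood at 18.3 ± 2.44 FPKM. Genes that respond to hedgehog signals were well expressed, Gli1 at 43.0, 47.5, 49.7 and 46.7 FPKM and Ptch1 at 32.5, 17.5, 26.6 and 23.6. Ptch1 was highest in vehicle 1 and lowest in vehicle 2. The dorsal factor Lmx1b stood at 28.7 ± 1.39 FPKM, the posterior factor Hand2 at 27.7 ± 3.001 and the proximal factor Meis1 at 1.06 ± 0.231.

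**Figure D2:**
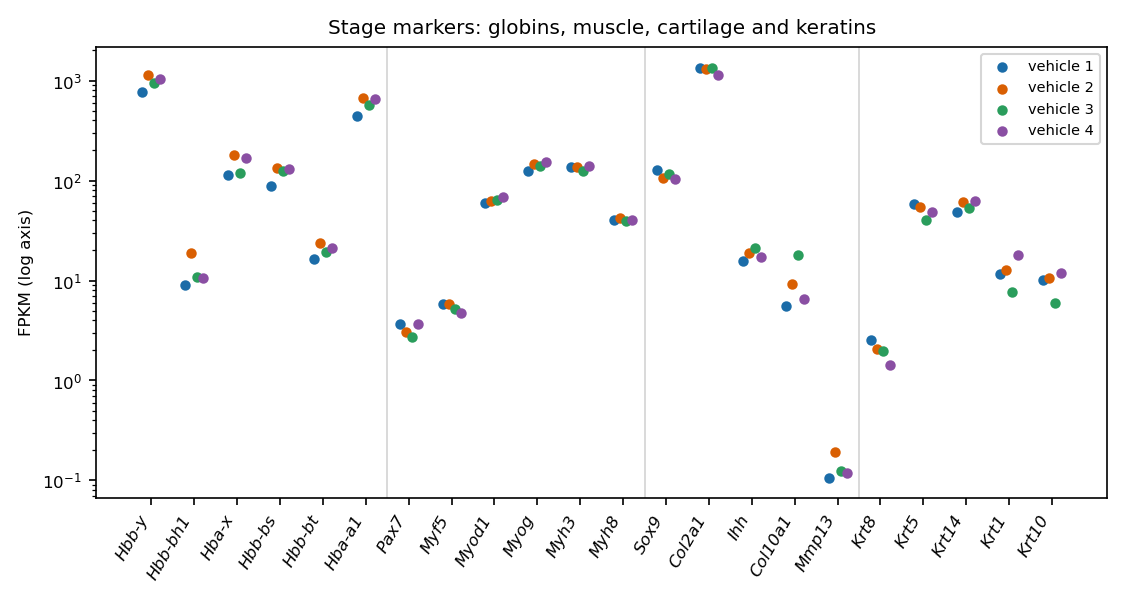
FPKM on a log axis of 22 stage markers, 1 point per vehicle library: 6 globins, 6 muscle genes, 5 cartilage genes and 5 keratins. Embryonic Hbb-y lies above adult Hbb-bs, Myh3 above Myh8 and Krt14 above Krt8 in all 4 libraries, and Col10a1 spreads from 5.52 to 17.9.

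S phase genes had the lowest median CV of the 32 lists. Of 24 S phase genes 23 were expressed with a median of 19.3 FPKM, and the 23 that passed the filter had a median CV of 5.02%. The exception, Fen1, had 32 reads. The replication clamp Pcna measured 54.8, 63.5, 64.0 and 64.2 FPKM, vehicle 1 being the lowest. All 28 genes of G2 and M phase were expressed, with a median of 13.2 FPKM. The proliferation marker Mki67 measured 16.6, 13.8, 13.3 and 12.7 FPKM and Top2a 39.0, 34.8, 32.6 and 31.1, vehicle 1 being the highest for both and for 18 of the 28 genes.

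Of the 32 gene lists, that of genes that answer to low oxygen held the most members with a wide span between the libraries. Under hypoxia the factor HIF1 switches on glucose uptake, glycolysis, angiogenic signals and its own prolyl hydroxylases, so the list joins glycolytic enzymes with HIF targets. All 34 members were expressed with a median of 32.0 FPKM. Vehicle 1 was the highest library for 31 of the 34 and vehicle 4 the lowest for 33. The median member deviated from its own mean by 0.47, 0.26, -0.11 and -0.66 log2 units in vehicle 1 to vehicle 4. After scaling, 21 of the 34 ranged at least 2-fold, against 5.47% of the genes that passed the filter, and without vehicle 4 the count was 3.

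The glucose transporter Slc2a1 measured 82.4, 66.4, 43.4 and 25.0 FPKM. Ankrd37, a small HIF target, showed the widest span of the list, 10.6, 10.2, 3.79 and 2.16 FPKM, with Ufsp2 overlapping it on the opposite strand at 542% of its reads. The oxygen-sensing hydroxylase Egln3 stood at 14.8, 14.2, 8.65 and 5.79 FPKM and the carbonic anhydrase Car9 at 4.14, 3.55, 2.68 and 1.46. In each of these vehicle 1 and vehicle 2 lay above vehicle 3, and vehicle 4 below all. Further targets with the same order were the mitophagy gene Bnip3 (75.5, 70.4, 45.7 and 26.0 FPKM), the differentiation gene Ndrg1 (19.3, 14.5, 9.16 and 5.51) and the vasoactive peptide gene Adm (5.001, 4.27, 3.25 and 1.18).

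The glycolytic enzymes spanned from 1.31-fold (Gapdh) to 2.63-fold (Pfkp) after scaling. The phosphofructokinase gene Pfkp measured 8.64, 5.85, 4.96 and 3.37 FPKM and the hexokinase gene Hk2 15.8, 14.3, 9.67 and 7.08, spans as wide as those of several HIF targets. The aldolase gene Aldoa measured 583, 515, 376 and 295 FPKM, and Pgk1, which makes ATP in glycolysis, 224, 220.2, 169.5 and 111. Ldha, which turns pyruvate into lactate, was at 296, 309.7, 247 and 186 FPKM, with vehicle 2 the highest. Gapdh, with the narrowest span of the enzymes, was at 739, 739, 649 and 577 FPKM. Of the regulators of glycolytic flux, Pfkfb3 measured 15.8, 13.3, 9.34 and 5.77 FPKM, whereas Pfkfb4 was nearly level with 4.99, 5.64, 5.56 and 5.46. The list's share of counts was 0.836%, 0.773%, 0.607% and 0.476%. The library with the highest list level had the fewest counted reads, 17549560, and the library with the lowest had the most, 22006738; the part of depth in this spread was not tested.

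**Figure D3:**
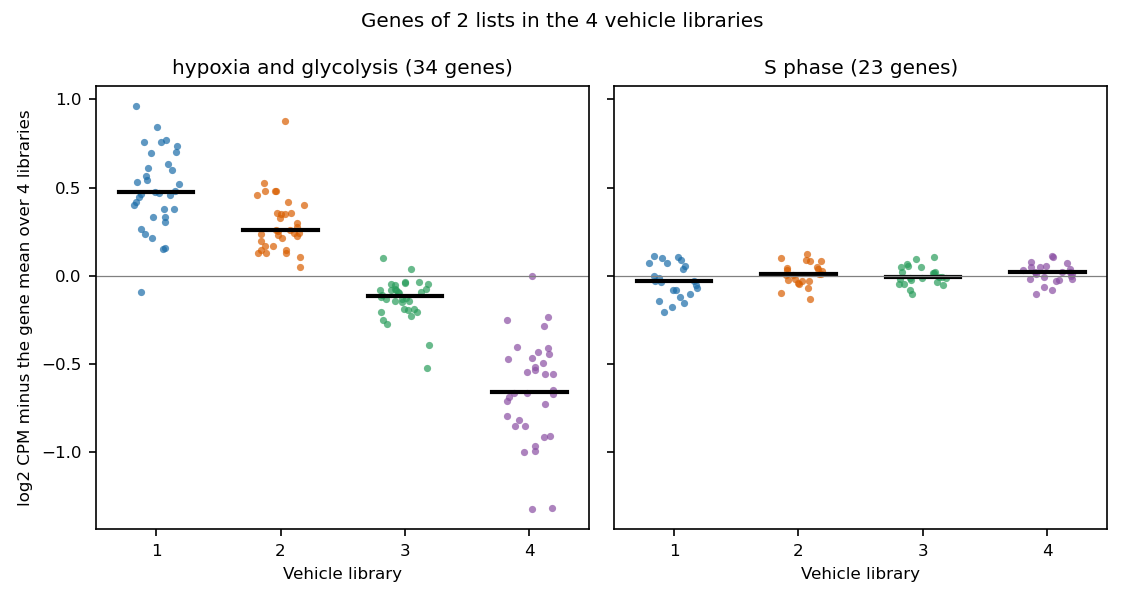
Deviation of each gene (point) from its own mean over the 4 vehicle libraries, in log2 CPM, for the 34 hypoxia and glycolysis genes and, for scale, the 23 S phase genes; black bars are medians. The hypoxia medians are 0.47, 0.26, -0.11 and -0.66, and those of S phase lie between -0.03 and 0.02.

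The promoters of 7 list genes are shown, chosen by name. All 7 had vehicle 1 the highest and vehicle 4 the lowest, but this does not set them apart. Vehicle 1 was the highest for 31 of the 34 members and vehicle 4 the lowest for 33. Capitals mark the core of the HIF binding motif (ACGTG or GCGTG, searched on both strands, so that CACGT and CACGC are also marked). In the 250 bases before a start, at least 1 RefSeq promoter of 30 of 32 matched list genes held a core (93.8%), against 41.5% of all 27025 genes. Counted by promoter, the shares were 81.2% and 38.6%. In other lists they were 70.6% of 17 promoters (cholesterol synthesis), 52.2% of 23 (S phase), 31.2% of 16 (erythroid) and 24.1% of 29 (differentiated skeletal muscle). The hypoxia list was built to include HIF targets. Base composition was not matched, and a core is a description of letters only. Of the 7 stretches shown, that of Car9 holds no core. It ends 61 bases before the start, because the last 60 bases lie in an annotated exon and are not shown. The shares count all 250 bases.
Slc2a1 (chr4:119108495-119108710, plus strand): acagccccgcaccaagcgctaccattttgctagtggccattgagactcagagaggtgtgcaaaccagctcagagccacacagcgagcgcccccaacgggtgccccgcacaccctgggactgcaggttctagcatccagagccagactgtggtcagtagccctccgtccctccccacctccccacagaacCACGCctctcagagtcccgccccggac
Egln3 (chr12:54203875-54204124, minus strand): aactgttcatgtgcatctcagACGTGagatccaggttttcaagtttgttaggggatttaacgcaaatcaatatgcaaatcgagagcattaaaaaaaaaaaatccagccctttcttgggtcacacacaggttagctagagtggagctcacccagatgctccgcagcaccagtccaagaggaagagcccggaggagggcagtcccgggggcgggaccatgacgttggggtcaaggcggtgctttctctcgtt
Car9 (chr4:43506776-43506965, plus strand): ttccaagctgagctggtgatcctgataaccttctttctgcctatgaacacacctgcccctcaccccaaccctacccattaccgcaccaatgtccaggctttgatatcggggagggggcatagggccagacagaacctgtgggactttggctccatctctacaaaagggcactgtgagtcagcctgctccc
Ankrd37 (chr8:45999868-46000100, minus strand): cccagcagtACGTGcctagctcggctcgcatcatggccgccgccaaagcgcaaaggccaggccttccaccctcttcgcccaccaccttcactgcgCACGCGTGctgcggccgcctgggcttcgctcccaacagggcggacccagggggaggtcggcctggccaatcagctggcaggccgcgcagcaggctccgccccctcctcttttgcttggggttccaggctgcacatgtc
Bnip3 (chr7:138909520-138909756, minus strand): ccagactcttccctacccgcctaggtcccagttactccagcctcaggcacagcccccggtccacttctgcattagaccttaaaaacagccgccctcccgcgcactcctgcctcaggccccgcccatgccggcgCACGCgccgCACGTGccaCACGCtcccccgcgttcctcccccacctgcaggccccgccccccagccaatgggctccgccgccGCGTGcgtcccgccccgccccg
Adm (chr7:110627407-110627656, plus strand): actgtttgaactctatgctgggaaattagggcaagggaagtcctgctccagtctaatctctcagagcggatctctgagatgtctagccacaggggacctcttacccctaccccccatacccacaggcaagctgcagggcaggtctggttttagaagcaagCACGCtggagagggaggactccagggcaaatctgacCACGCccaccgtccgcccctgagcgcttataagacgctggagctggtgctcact
Pgk1 (chrX:106186850-106187099, plus strand): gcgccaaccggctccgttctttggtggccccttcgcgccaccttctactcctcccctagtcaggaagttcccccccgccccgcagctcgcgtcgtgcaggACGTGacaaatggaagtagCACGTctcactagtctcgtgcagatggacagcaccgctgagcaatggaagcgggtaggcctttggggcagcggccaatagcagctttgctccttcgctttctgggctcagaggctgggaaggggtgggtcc

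Other gene lists that culture can touch varied less. Immediate early genes, which respond within minutes to handling or growth factors, deviated by 0.29, 0.07, -0.12 and -0.23 log2 units, with vehicle 1 the highest for 15 of 18 genes. Fos measured 11.6, 5.33, 3.92 and 3.34 FPKM and Jun 58.4, 45.0, 43.5 and 44.4. Cholesterol synthesis genes went the other way, at -0.23, 0.03, 0.07 and 0.11, with vehicle 1 the lowest for 20 of 23. Fdps, a prenyl diphosphate synthase, stood at 71.3, 109, 105 and 109 FPKM.

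The stress-response gene Ddit3 measured 20.1, 26.3, 17.0 and 18.0 FPKM, highest in vehicle 2, with Mars overlapping it on the opposite strand. The chaperone gene Hspa1b was at 3.49 ± 0.266 FPKM and its near-identical neighbour Hspa1a at 0.405 ± 0.122, a split that is uncertain for the same reason as that of the α-globins. Of the p53 targets 18 of 19 were expressed, and their medians deviated by at most 0.07 log2 units. Cdkn1a, the cell cycle inhibitor downstream of p53, stood at 61.8, 64.5, 61.4 and 67.2 FPKM.

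**Figure D4:**
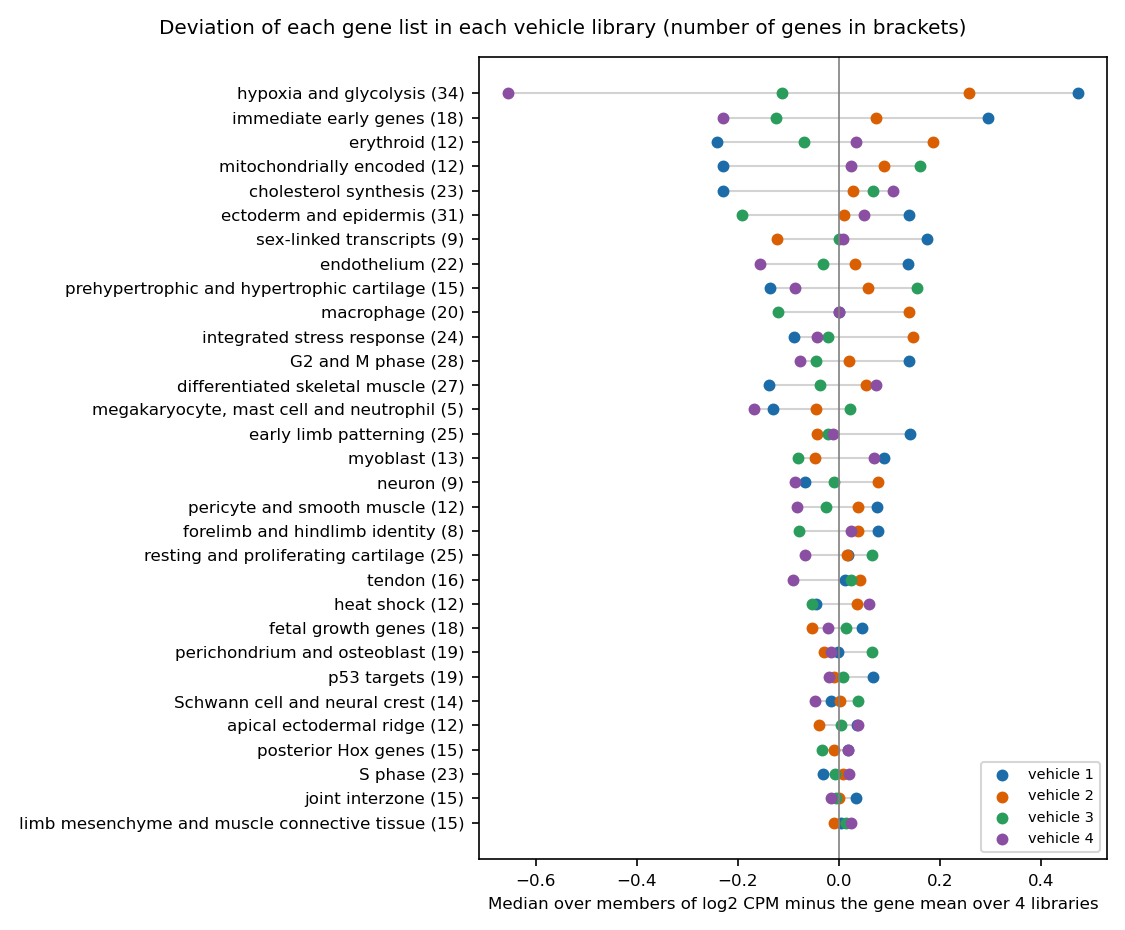
Median deviation of each gene list (row, number of genes in brackets) in each vehicle library (coloured point), in log2 CPM minus the gene mean over the 4 libraries. The hypoxia and glycolysis list spans 1.13 log2 units and the limb mesenchyme list 0.03.

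Gene by gene, 92 of 9468 genes with a mean of at least 5 FPKM ranged 2-fold or more between the libraries (0.972%). Among them 19 belonged to the hypoxia and glycolysis list and 13 were annotated as pseudogenes. Vehicle 1 was the highest library for 62 of the 92, in 33 of which vehicle 4 was the lowest and in 26 of which vehicle 2 was. The first of these sets had a median length of 1939 bases, the second 4089.5 bases and all 9468 genes 3112.5 bases. Length also moved with the libraries over all genes. Genes longer than 4021 bases deviated by a median of 0.11, -0.08, -0.01 and -0.02 log2 units in vehicle 1 to vehicle 4, and genes of up to 2377 bases by -0.09, 0.08, -0.01 and 0.02; the part of this in the spreads above was not tested. The count of 92 fell to 46 without vehicle 1, to 61 without vehicle 2 and to 59 without vehicle 4.

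Some of the widest spans belonged to genes with near copies. The pseudogene Rps2-ps13 measured 56.1, 61.7, 440.4 and 245.8 FPKM. Vehicle 3 and vehicle 4 stood far above the other 2, and reads of near-identical copies can be split differently, so these values are uncertain. Outside the hypoxia list, its order was shared by 3 of the 15 widest-ranging genes, 1 of them predicted and unnamed. The others were the mitochondrial subunit gene Ndufa4l2 with 22.7, 17.7, 13.7 and 3.46 FPKM and the clock gene Ciart with 9.23, 7.76, 4.87 and 2.41. Whether these genes also answer to low oxygen was not tested. Shmt2 overlaps Ndufa4l2 on the opposite strand with 885% of its reads.

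Yam1, a noncoding RNA at chr17:39846958-39848788, took 0.618% of the counts and measured 2779, 1313, 4803 and 4287 FPKM. In the RefSeq annotation 68.0% of its length overlaps Rn18s-rs5, a copy of the 18S ribosomal RNA gene, so its reads cannot be told apart from those of ribosomal RNA. Vehicle 2 was the lowest and vehicle 3 the highest. Counted levels also differed widely from one mitochondrial gene to another: mt-Co1 reached 3879.8 ± 512 FPKM, whereas mt-Co2, mt-Co3 and mt-Atp6 stood at 24.2 ± 2.98, 20.3 ± 2.82 and 15.2 ± 1.02. Whether this gap lies in the transcripts or in how their reads were mapped and counted was not tested. Library by library the mitochondrial genes took 1.32%, 1.67%, 1.81% and 1.66% of the counts.

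The sex-linked genes showed transcripts of both sexes in every library. Xist, the RNA that coats the inactive X of female cells, measured 30, 71.1, 78.8 and 56.4 FPKM. Ddx3y, a Y-linked helicase gene, measured 19.9, 4.58, 5.56 and 10.5 FPKM, and the Y-linked Eif2s3y 18.4, 5.16, 5.75 and 12.6. Kdm5d and Uty followed the same order. The sum of these 4 Y-linked genes was 51.0, 12.7, 15.2 and 30.2 FPKM, so vehicle 1 was the highest in Y-linked and the lowest in Xist transcripts. The X-linked partners Ddx3x and Eif2s3x stood at 97.0 ± 6.43 and 30.2 ± 3.28 FPKM. Vehicle 1, with the highest Y-linked level, was also the highest in the hypoxia list, but vehicle 4, the second highest in Y-linked transcripts, was the lowest; the part of sex in the other spreads was not tested.

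**Figure D5:**
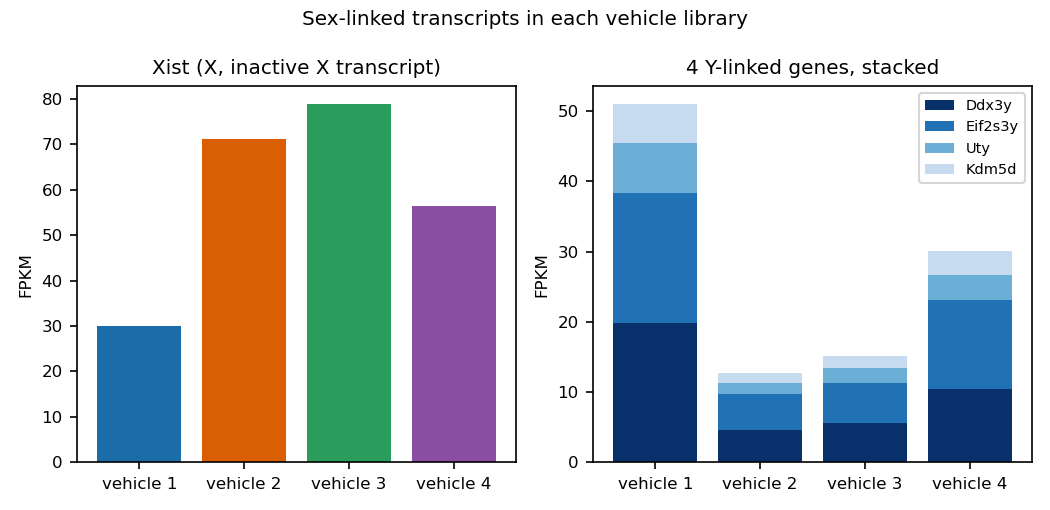
FPKM per vehicle library of Xist (left) and of the 4 Y-linked genes Ddx3y, Eif2s3y, Uty and Kdm5d stacked (right). Vehicle 1 has the lowest Xist, 30, and the highest Y-linked sum, 51.0, and no library lacks either.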

How the data were processed

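RNA was measured in the 4 vehicle samples by sequencing of poly-A selected RNA, per the labels. Tools credited to the submitters' processing notes are STAR 2.5, HTSeq 0.6.1, CASAVA 1.8 and DESeq2 2, with build mm10. The deposited table holds read counts per gene, not normalized, and FPKM per the file headers; the deposited FPKM equalled counts over length and total within a ratio of 0.99989 to 0.99991. Further deposited columns hold signal values, which by their numbers are counts divided by 1 factor per library, and are not used. No source used here gives the strand setting, or says whether replicates are separate litters.

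Levels are the deposited FPKM. Spread was computed from the counts with edgeR 4.0.16 in R 4.3.3: TMM scaling, filterByExpr (14892 genes kept) and log2 CPM with a prior count of 2. No test between groups exists for 1 group. On simulated data the dispersion estimate was checked. Python 3.11.15 with pandas 2.3.3 did the rest, and DESeq2 1.42.0 gave alternative size factors.

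The members and the 32 gene lists (583 of 614 genes in the table, the others not analysed here) were chosen with earlier results of these data known. Promoters matched 431 of the 614. Genes named are the defining members of each list, the 4 others of highest mean FPKM, the 20 highest genes, and the 15 of widest range at 5 FPKM or more, predicted names left out; a few genes that this rule names are not reported here. Named outside that rule, after their values were seen, were Sox5, Sox6, Ucma, Panx3, Slc13a5, Phospho1, Bglap, Dmp1, Sost, Ifitm5, Prg4, Ckm, Prox1, Lyve1, Myh11, Klf1, Gata1, Cd163, Krt10, Dct, Tyrp1, Hoxc9, Hoxc10, Hoxc11, Fen1, Bnip3, Adm, Pgk1, Pfkp, Hk2, Pfkfb3, Pfkfb4, Uty, mt-Co2, mt-Co3 and the genes named as overlapping or near copies.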

Additional observations from a re-analysis of the deposited data

Results flagged for a closer look

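In a group of 4 a library was picked out when its gap to the nearest other was a larger part of the whole range than Dixon's 95% critical value allows. Chance alone picks out about 1 in 20, and 18 of 319 values examined were picked out here.

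Vehicle 1 stood apart in 7 of them. It was high in the immediate early gene Jun (58.4 FPKM against 43.5 to 45.0 in the others) and in the fractalkine receptor gene Cx3cr1 (3.68 against 2.28 to 2.498). Wdr48 overlaps Cx3cr1 on the opposite strand with 749% of its reads, so that value is uncertain. Vehicle 1 was low in the cholesterol synthesis genes Fdps (71.3 against 105 to 109) and Mvd (26.3 against 34.1 to 35.0), in Pcna (54.8 against 63.5 to 64.2) and in Wnt4 (9.59 against 11.2 to 11.4). It also had 13280 genes at 1 FPKM or more, where each of the others had 13261.

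Vehicle 2 stood apart in 6. It was high in the macrophage gene Aif1 (4.46 FPKM against 3.09 to 3.32), the centromere gene Cenpa (32.4 against 30.6 to 30.8), Col9a2 (364.6 against 326 to 329) and Rps27 (1650.5 against 1337 to 1371). It was low in the muscle genes Mef2c (36.1 against 41.8 to 42.4) and Mstn (9.41 against 12.04 to 12.34).

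Vehicle 3 was low in Fgf9 (5.13 FPKM against 5.52 to 5.56), in T, the notochord gene (0.0696 against 0.222 to 0.251, from 31 reads in all), and in the share of counts held by the ectoderm list (0.0535% against 0.0647% to 0.0653%). Vehicle 4 was low in Col1a2 (415 FPKM against 444 to 450.0) and in the share held by the cartilage list (1.52% against 1.68% to 1.72%).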

How the results depend on the processing

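No paired analysis was possible because the libraries form a single group. Of 854 alternatives over 143 summary values 38 moved by more than the spread between libraries or, for counts, by over 1.5 times. The number of genes with a 2-fold range was 6464 with no filter on low counts, 152 at a mean of at least 5 CPM and 456 to 615 with 1 library left out. Leaving out 1 library gave 3 to 21 hypoxia genes with a 2-fold range (3 without vehicle 4), 46 to 82 genes at 5 FPKM or more, a joint interzone median of 10.8 to 11.6 FPKM and a pericyte median of 20.97 to 21.96 FPKM. These 2 counts, and library totals for them, were added after the data were seen.

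A threshold of 2 FPKM left 7 Schwann cell, 3 limb identity, 3 megakaryocyte, mast cell and neutrophil, and 2 neuron genes expressed. A threshold of 0.5 FPKM or of 1 TPM gave 2 organ genes, and 1 TPM gave 8 limb identity genes. Without mitochondrial and haemoglobin counts the S phase share was 0.155% and the posterior Hox share 0.110%. With the mean over members in place of the median the distance between highest and lowest library became 0.11 for the apical ridge, 0.43 for limb identity, 0.20 for heat shock, 0.079 for joint interzone, 0.016 for limb mesenchyme, 0.13 for p53 targets, 0.16 for perichondrium, 0.022 for posterior Hox, 0.20 for cartilage and 0.83 for sex-linked genes, in log2 units. With library totals in place of TMM it was 0.086 for S phase, 0.020 for joint interzone and 0.056 for limb mesenchyme. Without the length term the ratios were 0.557 (Acta1 over Actc1), 2.21 (Col2a1 over Col1a1), 3.57 (Hoxd13 over Hoxd11), 10.3 (Tbx5 over Tbx4), 3.53 (α globin) and 0.165 (β globin). The cause of these shifts was not tested. For 280 single-gene values and counts of list members with a 2-fold range, 22 of 1400 alternatives moved. Genes with few reads, such as Shh with 10, are limited by depth.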
